A study of Homo sapiens with 2 samples.

Results

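The cells described here are neurons that carried transcripts of FEV, the transcription factor of serotonergic identity, together with at least 2 of the 5 genes CALB1, SIX3, CHODL, TLL1 and KIT. They were chosen by their own counts, with at least 1 unique molecular identifier (UMI, 1 captured transcript) of FEV, at most 1 UMI of SLC17A8, fewer than 2 of the 4 genes CRH, CRHBP, GAL and STC1 detected, and at least 1 UMI of each of 2 or more of the 5 marker genes. These 11 genes are called the rule genes, and their values describe the choice and are no finding. The rule took 3274 cells, called members below, of 13204 cells with a FEV UMI (FEV cells) and 13958 cells past the filters. Of the members, 1517 came from the WT-labelled library and 1757 from the FKO-labelled library.

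The study asks how the transcription factor FOXA2 bears on human serotonin neurons (SNs). Both libraries came from the embryonic stem cell line WA09 (H9) with an EGFP reporter knocked in at TPH2, the gene of the enzyme that starts serotonin synthesis in neurons. Cells differentiated to day 42 were dissociated and sorted for EGFP, and 1 library each was made with the 10x Genomics 3' kit (V3), so what was sequenced had passed a gate on TPH2 activity. The WT-labelled library carried the reporter alone, and the FKO-labelled library carried the reporter and a FOXA2 knockout. By the study's methods, the reporter line with the knockout was built on an edited line in which a CRISPR indel shifts the reading frame, which the labels do not state. With 1 library per condition there were no replicates, cells do not replace them, and no difference below was tested. All intervals are exact 95% intervals and cover counting error only.

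FOXA2 (ENSG00000125798, chromosome 20) had more UMIs in the FKO-labelled library. In FEV cells it had 348 UMIs or 4.05 CPM (UMIs per 1000000 UMIs of the pooled cells) in the WT-labelled library and 1100 UMIs or 17.5 CPM in the FKO-labelled library. In members it had 55 UMIs or 2.63 CPM (1.98 to 3.42) in the WT-labelled library and 248 UMIs or 13.2 CPM (11.6 to 14.9) in the FKO-labelled library. The level was thus higher in the FKO-labelled library, and lower in members than in other FEV cells in both libraries, where it was 4.5 and 19.4 CPM. Against other FEV cells within the exclusion limits given below, FOXA2 was further apart in the WT-labelled library, with a log2 ratio of -1.48 in place of -0.78. UMIs read at the 3' end of a transcript carry nothing on an upstream frameshift, so these counts check nothing about the edit. The libraries are therefore called by their labels, and each direction between them rests on the labels.

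Serotonin neurons arise in the hindbrain, and FEV (also called PET1) switches on the genes with which they make, package and take back serotonin. They are not uniform: subsets differ in peptides, in the vesicular glutamate transporter encoded by SLC17A8 and in calcium-binding proteins. CALB1 encodes calbindin, which buffers calcium ions, SIX3 a homeodomain transcription factor best known from forebrain and eye, CHODL a C-type lectin-like membrane protein, TLL1 a secreted metalloprotease of the tolloid family that frees BMP ligands from chordin, and KIT the receptor tyrosine kinase for stem cell factor.

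The WT-labelled library held 11052 barcodes with 123064653 UMIs, and the FKO-labelled library held 8806 barcodes with 70588747 UMIs. Cells were kept with 1000 UMIs or more, 500 genes or more and a mitochondrial share of 10% or less, which left 6385 and 7573, and the last limit took away more of the WT-labelled library (from 10610 to 6385 barcodes) than of the FKO-labelled library (from 8588 to 7573). The libraries shared 21 barcode sequences, of which 6 were a member in either library and 0 in both. Of 6264 FEV cells in the WT-labelled library, 1595 were left out for SLC17A8 and 991 for the 4 peptide and hormone genes (some for both), and 3789 remained within these exclusion limits. Of 6940 FEV cells in the FKO-labelled library, 946 and 352 were left out in the same way, and 5689 remained.

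Members made up 24.2% (23.2% to 25.3%) of FEV cells in the WT-labelled library and 25.3% (24.3% to 26.4%) in the FKO-labelled library. Their median depth was 12806 UMIs in the WT-labelled library and 8565 in the FKO-labelled library, against 12671 and 6866 in other FEV cells. Members of the FKO-labelled library were thus deeper than the cells they are compared with. Among cells without a FEV UMI, the cells outside the definition, 5 of 121 (4.13%) and 28 of 633 (4.42%) had 2 or more of the markers, at median depths of 7460 and 5722 UMIs. Among FEV cells within the exclusion limits the share was 40.0% (38.5% to 41.6%) in the WT-labelled library and 30.9% (29.7% to 32.1%) in the FKO-labelled library, at median depths of 12032 and 7081 UMIs. When every cell was thinned to 2000 UMIs, which left out 43 and 116 shallower cells, these shares were 6.72% (5.94% to 7.57%) and 7.18% (6.52% to 7.88%), so the order of the libraries in whole cells was not found at equal depth. In thinned cells without a FEV UMI, 0 of 102 in the WT-labelled library (a count of 0 allows up to 3.55%) and 6 of 568 (1.06%) in the FKO-labelled library had 2 markers.

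The excluded FEV cells also held the markers. In thinned FEV cells with 2 or more SLC17A8 UMIs, 3.57% (2.72% to 4.61%) of the WT-labelled library and 2.44% (1.55% to 3.64%) of the FKO-labelled library had 2 or more markers. In thinned FEV cells with 2 or more of the peptide and hormone genes, the share was 3.23% (2.22% to 4.53%) and 5.68% (3.50% to 8.64%). A pair of markers was thus found less often in cells with SLC17A8 than in cells within the exclusion limits in both libraries, and the 4 peptide and hormone genes showed this in the WT-labelled library, while their intervals overlapped in the FKO-labelled library. In whole cells the shares were 34.4% and 22.7% of FEV cells with SLC17A8, at median depths of 12385 and 6940 UMIs. For the 4 peptide and hormone genes they were 37.3% and 50.3%, at median depths of 16480 and 13024.5 UMIs, so in the FKO-labelled library these deeper cells passed the share within the limits.

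CALB1 was the leading marker. It was detected in 93.3% of members in the WT-labelled library and 90.0% in the FKO-labelled library, and without counting it 583 and 671 cells would still have qualified. Its level in members was 406 CPM (398 to 415) in the WT-labelled library and 369 CPM (360.0 to 377) in the FKO-labelled library. Other FEV cells within the exclusion limits had 189 and 139.9 CPM, and cells without a FEV UMI 28.4 and 51.3 CPM. At 2000 UMIs, 48.6% and 49.4% of members still held CALB1, against 5.88% and 8.80% of cells without FEV (whole cells 17.4% and 16.1%). CALB1 was therefore widespread among FEV cells and several-fold lower where FEV was missing. Cells with SLC17A8, whatever their markers, had 196 and 153 CPM.

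SIX3 was less frequent in members of the FKO-labelled library. Among members it was detected in 32.8% in the WT-labelled library and 9.68% in the FKO-labelled library, against 8.26% and 3.63% of cells without a FEV UMI. At 2000 UMIs these shares were 8.57% and 2.79% of members and 5.88% and 1.94% of cells without FEV. The pooled level of SIX3 was 48.5 CPM (45.5 to 51.6) in members of the WT-labelled library and 14.1 CPM (12.5 to 15.9) in members of the FKO-labelled library. Cells without a FEV UMI had 20.3 CPM (12.4 to 31.4) and 18.9 CPM (14.9 to 23.7), so in the FKO-labelled library the level of SIX3 in members, although they were selected on it, did not exceed that of cells without FEV. In the WT-labelled library a member held up to 13 SIX3 UMIs, and in the FKO-labelled library up to 8.

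CHODL was detected in 39.9% and 33.6% of members in the WT-labelled and FKO-labelled libraries, at 47.4 and 42.3 CPM. TLL1 was detected in 39.6% and 38.7%, at 37.8 and 46.5 CPM. Both genes were close between the libraries, and in cells without a FEV UMI they stood at 6.09 and 6.31 CPM for CHODL and 3.05 and 3.54 CPM for TLL1. KIT was detected in 32.9% of members in the WT-labelled library and 62.3% in the FKO-labelled library, at 33.4 CPM (31.0 to 36.0) and 105 CPM (100.1 to 109). KIT was thus the most frequent second marker in the FKO-labelled library, whereas in the WT-labelled library the 4 second markers were close in frequency. In cells without a FEV UMI the shares were 3.31% and 3.0% for CHODL, 2.48% and 2.05% for TLL1 and 3.31% and 6.64% for KIT. At 2000 UMIs the shares of members were 8.70% and 9.62% for CHODL, 8.64% and 11.8% for TLL1 and 5.41% and 20.8% for KIT. The cells without FEV then had 0.980% and 0.880% for CHODL, 0% and 0.880% for TLL1 and 0% and 3.17% for KIT. Members were chosen on these genes, so a higher share in members follows from the choice.

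**Figure D1:**
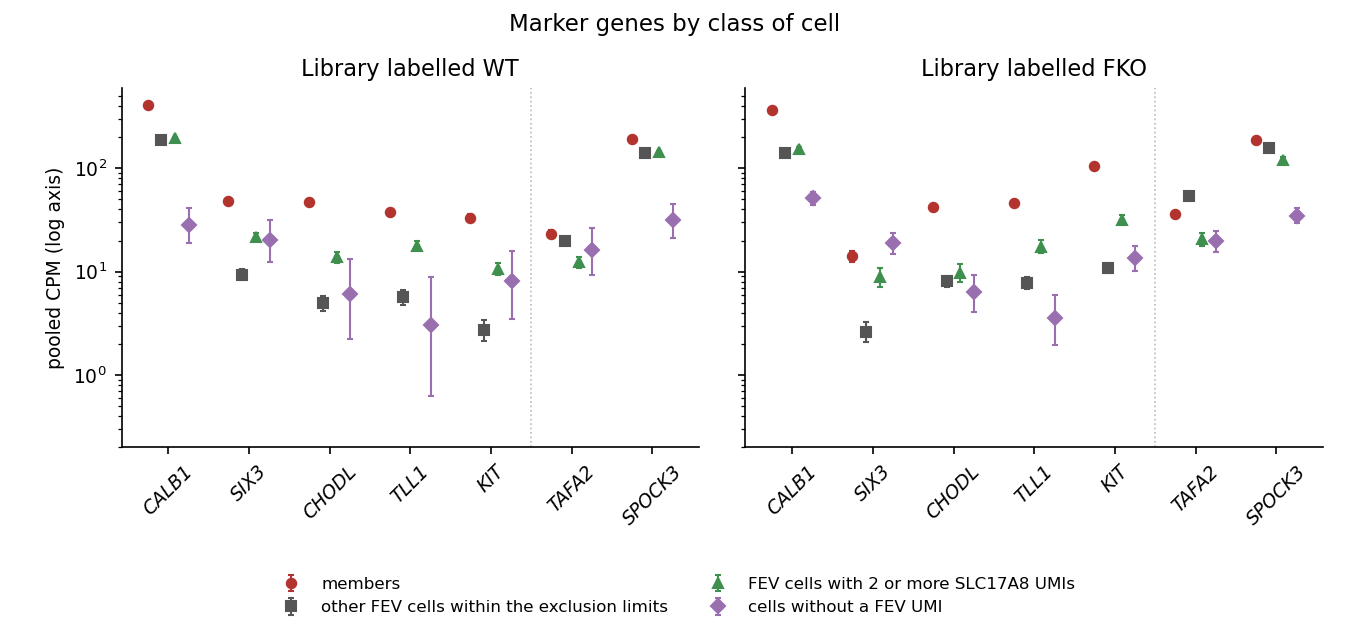
Pooled CPM (log axis) of the 5 marker genes and of TAFA2 and SPOCK3 in 4 classes of cell, for the WT-labelled library (left) and FKO (right), with exact 95% counting intervals. Members stand highest for the 5 genes they were selected on except SIX3 in the FKO-labelled library, where cells without a FEV UMI reach 18.9 CPM, and TAFA2 on the right is below the level of other FEV cells within the limits.

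The pairs of markers in members describe the choice, and the libraries differ in depth. Members with CALB1 and SIX3 as their only markers numbered 260 in the WT-labelled library and 78 in the FKO-labelled library. Members with CALB1 and KIT alone numbered 192 and 571. CALB1 with CHODL gave 226 and 173, and CALB1 with TLL1 gave 256 and 264. Members without CALB1 numbered 102 (6.72%) and 175 (9.96%). All 5 markers were found together in 6 cells of the WT-labelled library and 2 of the FKO-labelled library.

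TAFA2, a secreted chemokine-like protein, and SPOCK3, a proteoglycan of the testican family, are listed as markers of the same cells, and the rule did not use them. SPOCK3 was 190.4 CPM in members and 137 CPM in other FEV cells of the WT-labelled library, a log2 ratio of 0.48 (0.42 to 0.53). In the FKO-labelled library it was 187 and 147 CPM, a log2 ratio of 0.35 (0.29 to 0.41). SPOCK3 was higher in members in both libraries, under the 1.5-fold used here to call a gene (0.58 on the log2 scale). TAFA2 was 23.2 CPM in members and 16.8 CPM in other FEV cells of the WT-labelled library, a log2 ratio of 0.46 (0.31 to 0.62). In the FKO-labelled library it was 36.1 and 44.1 CPM, a log2 ratio of -0.29 (-0.42 to -0.16), so TAFA2 took opposite directions in the 2 libraries. Other FEV cells within the exclusion limits stood further above members there, at 60.2 CPM with 0 markers and 50.5 CPM with 1. In the WT-labelled library such cells were closer to members with 1 marker, at 21.3 CPM, and lower with 0. The TAFA2 ratio in the WT-labelled library was -0.13 with at most 5% mitochondrial UMIs.

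The label of these cells names CALB1, SIX3 and CHODL, and the question is whether the markers occur in the same cells. It was asked among FEV cells within the exclusion limits, comparing the pooled level of each gene in cells with and without a UMI of a marker, with cells weighted to the same deciles of depth. These ratios use the genes of the rule but not the count of markers that made a member. KIT was higher in cells with CALB1, by a log2 ratio of 1.49 in the WT-labelled library and 1.27 in the FKO-labelled library. CHODL was higher in cells with KIT, by 0.84 and 0.74. TLL1 was higher in cells with CHODL, by 0.51 and 0.49. The lowest value among CALB1, KIT, CHODL and TLL1 was that of CHODL in cells with CALB1 in the FKO-labelled library, 0.12, against 0.99 in the WT-labelled library. Without the weights this ratio was -0.04 (-0.22 to 0.15) in the FKO-labelled library, the only one among these 4 genes whose interval did not lie above 0.

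SIX3 was read in the same way. In cells with KIT the log2 ratio of SIX3 was -0.53 in the WT-labelled library and -0.74 in the FKO-labelled library, and in cells with TLL1 it was -0.61 and -0.32. In cells with CHODL it was 0.09 and -0.14, and in cells with CALB1 0.38 and 0.16. In the reverse view, KIT in cells with SIX3 was -0.52 in the WT-labelled library and -0.26 in the FKO-labelled library, and TLL1 -0.43 and -0.17. Unweighted, where intervals can be given, KIT was -0.55 (-0.86 to -0.25) and -0.29 (-0.60 to 0.02) and TLL1 -0.45 (-0.72 to -0.18) and -0.21 (-0.67 to 0.21), so in the FKO-labelled library both intervals of this reverse view held 0. Unweighted SIX3 was -0.67 (-0.93 to -0.41) and -0.90 (-1.32 to -0.50) in cells with KIT. In cells with TLL1 it was -0.70 (-0.93 to -0.46) and -0.50 (-0.96 to -0.06), so these intervals lay below 0 in both libraries. In the FKO-labelled library the share of cells with SIX3 was 3.74% with KIT and 3.88% without, and 4.18% with TLL1 and 3.79% without, in cells of unequal depth. CALB1 in cells with SIX3 was 0.00 and 0.19 weighted and -0.08 (-0.14 to -0.02) and 0.13 (0.00 to 0.25) unweighted, and SIX3 in cells with CALB1 was 0.34 (0.16 to 0.52) and 0.08 (-0.24 to 0.41) unweighted. TAFA2 went with SIX3, at 0.62 and 0.52 in cells with SIX3, but was lower in cells with KIT, at -0.31 and -0.68. Apart from TAFA2 these are values of rule genes, with 1 library per condition, and they carry no verdict on the label. The cells are called members here and are described by the markers they held.

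**Figure D2:**
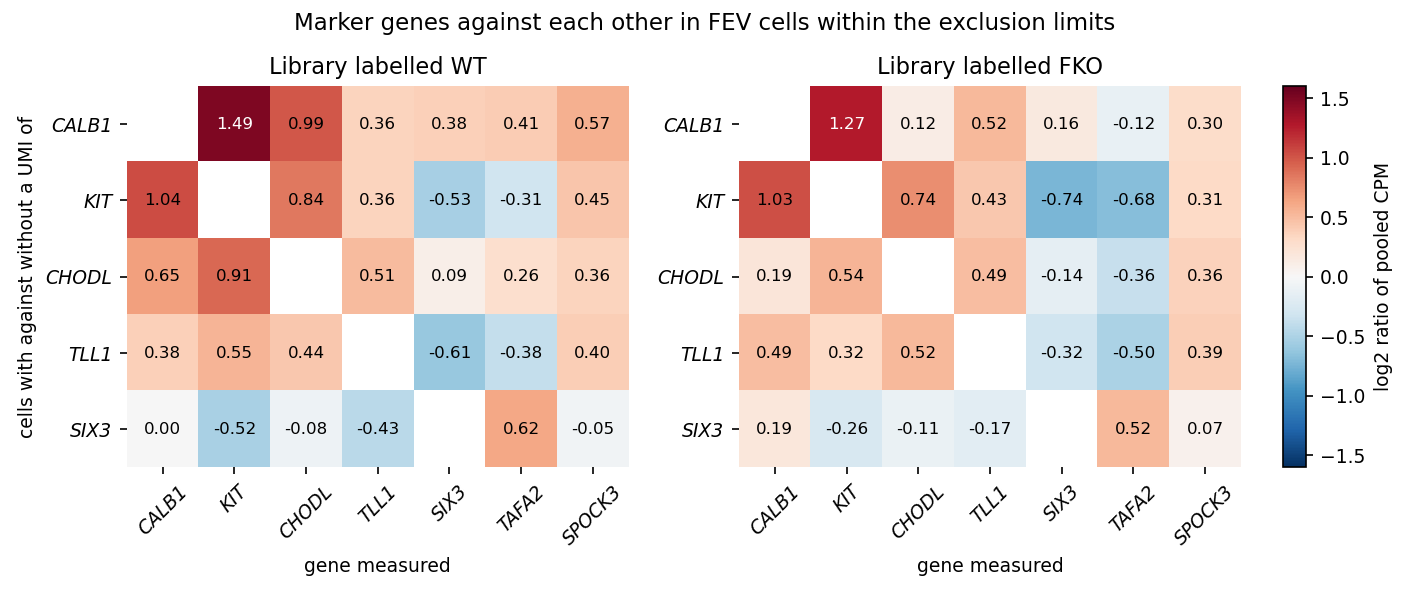
Log2 ratio of pooled CPM of each gene (columns) in cells with against cells without a UMI of each marker (lines), weighted to equal depth, among FEV cells within the exclusion limits of the WT-labelled library (left) and FKO (right). CALB1, KIT, CHODL and TLL1 are above 0 with each other in both panels, and SIX3 is below 0 in cells with KIT and with TLL1.

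SIX3-AS1, the antisense neighbour of SIX3, was higher in cells with SIX3. On GRCh38, SIX3 lies at chr2:44941898-44946077 on the plus strand and SIX3-AS1 at chr2:44940154-44941873 on the minus strand, with 25 bases between their start sites and no shared base. Among FEV cells within the exclusion limits, SIX3-AS1 was 10.9 CPM in cells with SIX3 and 2.11 CPM in cells without it in the WT-labelled library, a log2 ratio of 2.37 (1.94 to 2.81). In the FKO-labelled library it was 3.03 and 0.240 CPM, a log2 ratio of 3.66 (2.05 to 5.15). Most cells with SIX3 held no SIX3-AS1 UMI: it was detected in 13.1% of them in the WT-labelled library and 3.20% in the FKO-labelled library. Over FEV cells the antisense gene had 322 UMIs in the WT-labelled library and 21 in the FKO-labelled library, so both genes of this pair were lower in the FKO-labelled library. Relatives of SIX3 were near 0, and SIX6, the closest of them, had 0 UMIs in members of both libraries, and SIX4 0.143 and 0.637 CPM.

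Members that held CALB1 and 1 other marker differed among themselves in genes the rule did not use. Members with SIX3 had the lowest level of CPLX2, a complexin of the synaptic release machinery, at 113 (102 to 125) CPM in the WT-labelled library and 212 (179.6 to 249) CPM in the FKO-labelled library. The next lowest were 149 (137 to 163) CPM in members with TLL1 and 325 (299 to 353) CPM in members with CHODL. Members with SIX3 also had the highest TAFA2 level of the 4 groups, 37.2 (31.1 to 44.3) and 91.2 (70.2 to 116) CPM, against 25.4 (20 to 31.8) and 47.0 (37.4 to 58.3) CPM in members with CHODL. For the serotonin transporter SLC6A4 members with SIX3 had 17.5 (13.3 to 22.5) and 31.3 (19.6 to 47.5) CPM, with intervals that overlapped those of members with KIT in the WT-labelled library, at 25 (19.2 to 32.1) CPM, and of members with CHODL in the FKO-labelled library, at 35.5 (27.2 to 45.5) CPM. Of these genes, SIX3 members therefore stood apart from the 3 other groups in CPLX2 in both libraries and in TAFA2 in the FKO-labelled library, there from 78 cells, while the TAFA2 intervals overlapped in the WT-labelled library. In the WT-labelled library SIX3 members also had the highest SPARC, IFITM3 and ANXA2, at 28.8, 28.5 and 93.4 CPM. The next highest groups had 9.69, 8.37 and 64.2 CPM, and the intervals did not overlap. The FKO-labelled library did not share this, with 29.9, 8.55 and 7.12 CPM in SIX3 members and 32.4, 12.8 and 19.6 CPM in members with TLL1. Few cells held these genes. In the WT-labelled library SPARC was detected in 6.62%, IFITM3 in 4.19% and ANXA2 in 22.5% of cells within the exclusion limits with exactly 2 markers. The intervals cover counting error only, and whether a few cells set these levels was not tested.

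Members with KIT had the highest CALB1 level of the 4 groups, 497 CPM in the WT-labelled library and 460.1 CPM in the FKO-labelled library. CALB1 is a rule gene on which all 4 groups were chosen, so this level is no finding. The progenitor transcription factor SOX2 split the groups another way. In the WT-labelled library it was 192 CPM in members with KIT and 172 CPM in members with SIX3, against 93.7 CPM with CHODL and 102 CPM with TLL1. The FKO-labelled library gave, in the same order, 131, 134, 66.4 and 77.1 CPM. SOX2 was thus higher in members with KIT or SIX3 than in those with CHODL or TLL1 in both libraries. GATA3, a serotonergic transcription factor, varied little, from 573 to 639 CPM in the WT-labelled library and from 848 to 949 CPM in the FKO-labelled library.

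Outside the rule, members differed little from the other FEV cells of their library. Of 5680 genes with at least 20 CPM in members or in other FEV cells in each library, 5 were at least 1.5-fold higher in members in both libraries, 0.088% of the genes compared, and 14 were at least 1.5-fold lower, 0.246%. Of these, 2 of the 5 and 8 of the 14 reached the level in 1 or both libraries only on the side where they were high, so for them a difference was favoured by the level, and 3 and 6 genes reached it on both sides in both libraries. In the WT-labelled library alone 13 genes were higher and 27 lower, and in the FKO-labelled library 8 and 21. The median log2 ratio was 0.03 in the WT-labelled library, where 90% of genes lay between -0.15 and 0.23, and 0.01 in the FKO-labelled library, where they lay between -0.16 and 0.15. Few genes therefore set members apart.

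Of the 5 higher genes, 4 are described here, HS3ST5, CLSTN2, AKAP7 and IRX3. HS3ST5 (ENSG00000249853), a heparan sulfate sulfotransferase, was 22.4 CPM in members and 13.0 CPM in other FEV cells of the WT-labelled library (log2 ratio 0.79, 0.62 to 0.95) and 45.1 against 24.7 CPM in the FKO-labelled library (0.87, 0.74 to 1.0). CLSTN2 (ENSG00000158258), a calsyntenin of the postsynaptic membrane, was 22.1 against 13.9 CPM (0.67, 0.50 to 0.83) and 81.2 against 46.8 CPM (0.79, 0.70 to 0.89). Both genes were higher in the members pooled, at low to moderate levels, and each was also higher in the FKO-labelled library than in the WT-labelled library in members and in other FEV cells alike. Members with CALB1 and SIX3 alone did not share this, with HS3ST5 at 11.6 (8.31 to 15.8) and 21.4 (12.0 to 35.3) CPM and CLSTN2 at 9.60 (6.61 to 13.5) and 31.3 (19.6 to 47.5) CPM. These lay below the levels of other FEV cells, which only the interval of CLSTN2 in the WT-labelled library did not reach. AKAP7 (ENSG00000118507), an anchor of protein kinase A, was 63.9 against 40.0 CPM (0.68, 0.58 to 0.77) and 105 against 67.7 CPM (0.64, 0.56 to 0.72). IRX3 (ENSG00000177508), an Iroquois homeobox transcription factor, was 33.7 against 22.1 CPM (0.61, 0.48 to 0.74) and 38.4 against 21.2 CPM (0.85, 0.71 to 1.0). Members with CALB1 and SIX3 alone had AKAP7 at 39.6 (33.2 to 46.8) and 79.8 (60.3 to 104) CPM and IRX3 at 25.9 (20.8 to 31.9) and 17.1 (8.84 to 29.9) CPM, and the levels of other FEV cells lay within these 4 intervals.

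The next genes by the smaller of their 2 ratios included SOX2, FGF9, SSTR2, CDH18, NTRK3, SAMD5, CPLX2, GALNTL6 and SCN9A, with log2 ratios of 0.45 to 0.65 in the WT-labelled library and 0.47 to 0.70 in the FKO-labelled library. SSTR2, a somatostatin receptor, was 158 CPM in members and 109 CPM in other FEV cells of the WT-labelled library, and 260.0 and 159.9 CPM in the FKO-labelled library. SCN9A, a voltage-gated sodium channel, was 139 and 102 CPM, and 255 and 178 CPM. NTRK3, the receptor of neurotrophin-3, was 39.2 and 24.9 CPM, and 137 and 95.2 CPM. FGF9 and CDH18 turned to log2 ratios of -0.26 and -0.12 in the WT-labelled library with at most 5% mitochondrial UMIs, a limit that left 61 members there.

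**Figure D3:**
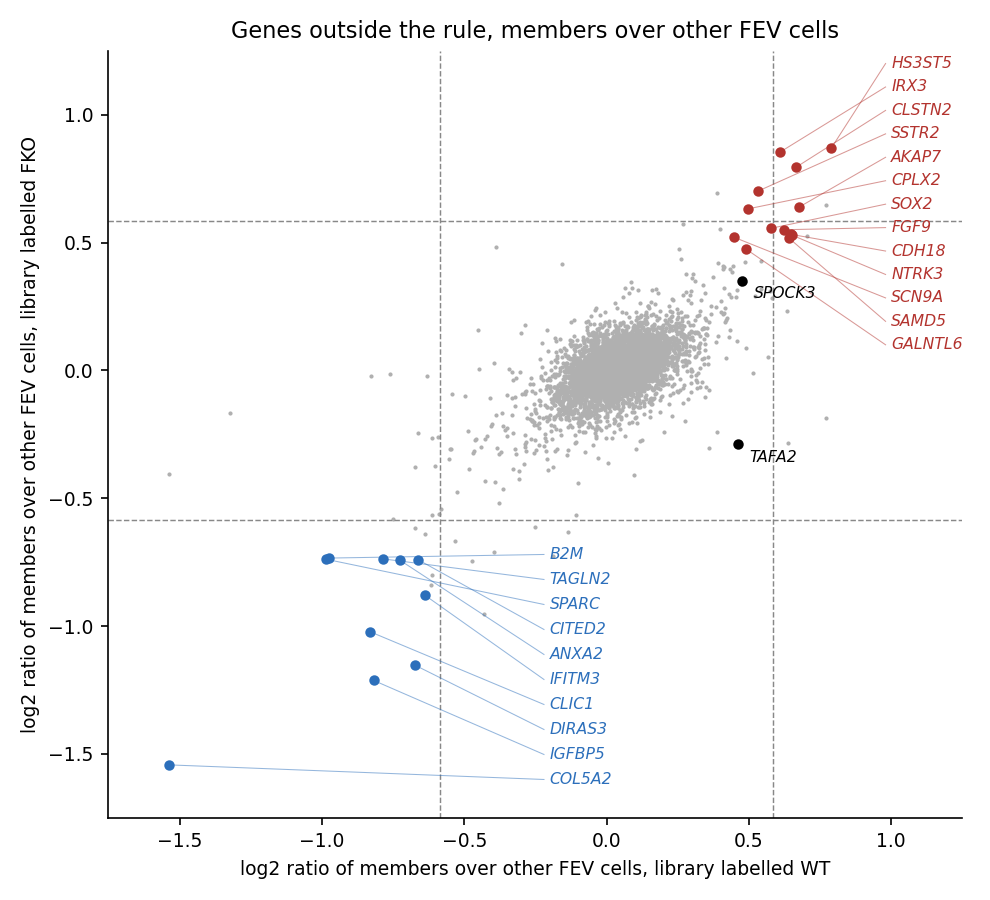
Log2 ratio of pooled CPM in members over other FEV cells for 5680 genes outside the rule, in the WT-labelled library (horizontal axis) and FKO (vertical axis), with dashed lines at 1.5-fold. Red marks 13 of the 15 highest genes by the smaller of the 2 ratios, blue the 10 lowest, and black TAFA2 and SPOCK3; most genes lie close to 0 in both libraries.

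Since the other FEV cells include those left out for SLC17A8 and the peptide and hormone genes, the comparison was repeated with the other FEV cells within the exclusion limits alone. It again gave 5 higher genes, of which 4 (HS3ST5, CLSTN2, AKAP7 and IRX3) were the same, and 10 lower genes, of which 6 were the same. Against FEV cells with CALB1 as their only marker, a comparison added after the data had been seen, 1 gene was higher in both libraries, HS3ST5, at 0.76 and 0.95, and 2 were lower. SOX2 turned to -0.29 in the WT-labelled library against these cells. In the WT-labelled library HS3ST5 and CLSTN2 reached 20 CPM in members alone, at 22.4 and 22.1 CPM against 13.0 and 13.9 CPM in other FEV cells. Other alternatives ended single calls: HS3ST5 and AKAP7 were not called with at most 5% mitochondrial UMIs, AKAP7 with 3 markers required, HS3ST5 with the rule applied at 2000 UMIs, and IRX3 with ratios centred on the median gene. CLSTN2 kept its call in these 4.

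Among FEV cells within the exclusion limits, several of these genes rose with the number of markers in a cell, up to 3 markers. HS3ST5 was 9.12 CPM in cells with 0 markers, 14.0 with 1, 19.6 with 2 and 26.6 with 3 in the WT-labelled library, and 16.8, 24.9, 40.1 and 52.4 CPM in the FKO-labelled library. SSTR2 was 72.8, 125, 149 and 175 CPM in the WT-labelled library and 132, 187, 254 and 279.8 CPM in the FKO-labelled library. CPLX2 was 81.7, 119, 143 and 194 CPM in the WT-labelled library and 209, 276, 376 and 419 CPM in the FKO-labelled library. The 3 genes were picked as high in cells with 2 or more markers, so a step from 1 to 2 markers follows from the choice. With 4 or 5 markers HS3ST5 was 32.2 and 59.4 CPM, SSTR2 165 and 244 CPM and CPLX2 250.2 and 387 CPM, so SSTR2 in both libraries and CPLX2 in the FKO-labelled library were lower than with 3. Depth rose along the same steps, from a median of 11085 UMIs with 0 markers to 13481 with 3 in the WT-labelled library and from 6233 to 9840 in the FKO-labelled library, and its part in these steps was not tested.

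At the threshold itself, cells with exactly 2 markers numbered 1027 in the WT-labelled library and 1248 in the FKO-labelled library, and cells with exactly 1 numbered 1521 and 2206. Their CALB1 levels were 353 CPM with 2 markers and 277 CPM with 1 in the WT-labelled library, and 356 and 234 CPM in the FKO-labelled library. CALB1 is itself 1 of the genes counted, so a higher level with 2 markers follows from the count. It was detected in 90.9% of cells with 2 markers and 71.8% with 1 in the WT-labelled library, and in 87.0% and 69.7% in the FKO-labelled library. SPOCK3 was 186 and 156 CPM in the WT-labelled library, and 186 and 167 CPM in the FKO-labelled library. TPH2 was 149 and 143 CPM, and 150.3 and 155 CPM. SPOCK3 was thus higher with 2 markers than with 1 in both libraries, and TPH2 took no common direction.

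COL5A2 (ENSG00000204262), a fibrillar collagen and the lowest of the 14 lower genes, was 27.9 CPM in members and 81.0 CPM in other FEV cells of the WT-labelled library (log2 ratio -1.54, -1.66 to -1.41) and 29.4 against 85.7 CPM in the FKO-labelled library (-1.54, -1.67 to -1.41). Against other FEV cells within the exclusion limits the COL5A2 ratios were -0.19 and -0.33, and against cells with CALB1 alone 0.21 and -0.18. The COL5A2 difference was thus held by cells that the rule left out, and in cells with SLC17A8 the gene reached 168 and 239 CPM.

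SPARC, a matrix-binding glycoprotein, was 14.0 against 27.8 CPM in the WT-labelled library and 23.7 against 39.6 CPM in the FKO-labelled library. IGFBP5, which binds insulin-like growth factors, was 34.9 against 61.6 CPM and 54.8 against 127 CPM. Few cells held these 2 genes: SPARC was found in 6.92% of members and 7.92% of other FEV cells of the WT-labelled library and in 7.40% and 6.91% in the FKO-labelled library, and IGFBP5 in 10.5% and 12.5%, and 12.7% and 11.9%. At 2000 UMIs these shares were 1.252% and 2.46%, and 1.88% and 3.06% for SPARC, and 2.37% and 3.83%, and 3.70% and 5.16% for IGFBP5. In whole cells of the FKO-labelled library the shares were thus not lower in members. B2M, the light chain of MHC class I, was 23.1 against 45.4 CPM and 20.1 against 33.4 CPM. In contrast to COL5A2, SPARC and IGFBP5 were further apart in the WT-labelled library when only other FEV cells within the exclusion limits were compared, with log2 ratios of -1.97 for SPARC and -1.73 for IGFBP5, against -0.99 and -0.82. IFITM3, an interferon-induced membrane protein, moved in the same way, from -0.64 to -1.58, but had a ratio of 0.31 with at most 5% mitochondrial UMIs. IGFBP5 in that library had a ratio of 0.06 when 3 markers were required. The other named genes of this group, CLIC1, TAGLN2, ANXA2, DIRAS3 and CITED2, had log2 ratios of -0.83 to -0.66 in the WT-labelled library and -1.15 to -0.74 in the FKO-labelled library, and TIMP1, ANXA5, SPRY1 and ZNF385D complete the 14. Of these DIRAS3, an imprinted GTPase gene, went the way of COL5A2, with ratios of -0.02 and -0.34 against other FEV cells within the exclusion limits. Against cells with CALB1 alone TAGLN2 had ratios of -0.14 and -0.13 and CLIC1 -0.24 in the WT-labelled library, so part of the list did not set members apart from other cells with CALB1.

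Genes of serotonin synthesis and handling were compared as a list. Of the 11 genes of this list 8 reached the level of 20 CPM (called measured below), 7 had a log2 ratio above 0 in each library, and the median was 0.10 and 0.15, and 0 of 8 passed 1.5-fold. Of all genes compared, 63.3% in the WT-labelled library and 55.1% in the FKO-labelled library had a ratio above 0, with medians of 0.03 and 0.01, beside which the counts of this and later lists stand. With the rule applied at 2000 UMIs QDPR (-0.03), PTS (-0.04) and GCH1 (-0.03) were below 0 in the WT-labelled library, where 4 of 8 then lay above it, and QDPR (-0.07) in the FKO-labelled library. SLC6A4 was 27.1 CPM in members and 19.4 CPM in other FEV cells of the WT-labelled library, and 55.0 and 43.3 CPM in the FKO-labelled library. DDC, which makes serotonin from its precursor, was 308 and 263 CPM, and 263 and 224 CPM. TPH2 alone of the measured genes was lower, at 154 against 215 CPM in the WT-labelled library and 150.5 against 177 CPM in the FKO-labelled library. This direction rested on the cells with SLC17A8, in which TPH2 reached 365 and 275 CPM. Against other FEV cells within the exclusion limits the log2 ratio of TPH2 was 0.21 in the WT-labelled library and 0.01 in the FKO-labelled library.

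The transcription factors of serotonergic identity did not set members apart. Of 11 genes on the list 6 were measured, 5 with a ratio above 0 in the WT-labelled library and 3 in the FKO-labelled library, with medians of 0.02 and -0.01. GATA3 was 611 and 610.3 CPM in members and other FEV cells of the WT-labelled library, and 889 and 866 CPM in the FKO-labelled library. GATA2 was lower in members, at -0.55 and -0.31 on the log2 scale, and -0.06 and -0.31 against other FEV cells within the exclusion limits. FEV itself, on which all FEV cells were selected, was 1613 and 1615 CPM in the WT-labelled library and 1021 and 942 CPM in the FKO-labelled library. Of the 10 marker genes of serotonergic neurons 9 lay outside the rule, and 8 of these were measured. In each library 6 of the 8 had a ratio above 0, with medians of 0.05 and 0.14. FEV was required by the rule and TPH2 carried the reporter of the sort, so their presence in members follows from the choice of cells. The serotonin receptors were low, with 0 of 11 measured and sums of 13.3 and 28.1 CPM in members against 9.54 and 19.8 CPM in other FEV cells. Of them HTR1D, at 8.55 and 11.5 CPM, and HTR1B, at 4.06 and 12.6 CPM, were the most abundant in members.

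Genes related to the markers by family or pathway were compared as lists. Of 14 neuronal calcium-binding proteins besides calbindin 7 were measured, 4 and 5 of them with a ratio above 0 in the WT-labelled and FKO-labelled libraries, with medians of 0.00 and 0.01. NECAB2, the most different of them in both libraries, was 159.6 and 142 CPM in the WT-labelled library and 116 and 104 CPM in the FKO-labelled library, and its ratio in the WT-labelled library went from 0.17 to -0.02 with the rule applied at 2000 UMIs. Of 24 genes of the BMP and tolloid pathway, the pathway of TLL1, 7 were measured, 5 of them with a ratio above 0 in each library, with medians of 0.14 and 0.03. In it ID4, a target of BMP signals, was 295 and 271 CPM in the WT-labelled library and 281 and 339 CPM in the FKO-labelled library, so its direction was not shared. Against cells with CALB1 alone ID4 was lower in the WT-labelled library too, at -0.31. Neither of these lists had a gene past 1.5-fold in both libraries, nor did the family of the SIX3 gene with EYA and DACH (2 of 11 measured, both above 0 in each library, medians 0.19 and 0.06) or the SPOCK family (3 of 3 measured, 2 above 0 in each library, medians 0.01 and 0.18). The TAFA family had 2 of 5 measured, 2 and 1 of them above 0, with medians of 0.30 and -0.03, and its most abundant gene was TAFA5, at 48.3 and 81.0 CPM in members.

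Of 27 genes for KIT ligand and receptor tyrosine kinases 4 were measured in both libraries, 3 of them with a ratio above 0 in each, with medians of 0.24 and 0.06. KITLG, which encodes the ligand of KIT, was 0.669 CPM in members of the WT-labelled library and 1.91 CPM in members of the FKO-labelled library. Among 20 neuropeptide genes outside the rule 1 was measured, TAC1, the precursor of substance P, at 404 against 294 CPM in the WT-labelled library (0.46, 0.42 to 0.50) and 1589 against 1279 CPM in the FKO-labelled library (0.31, 0.29 to 0.33).

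Position along the hindbrain was read from 25 rostrocaudal genes. In members 17 of them had 0 UMIs in the WT-labelled library and 15 in the FKO-labelled library. EN1, a gene of the midbrain-hindbrain boundary and rostral hindbrain, was the most abundant of them in the WT-labelled library, at 72 CPM, and was 161 CPM in the FKO-labelled library. EN1 did not differ between members and other FEV cells (log2 ratios of 0.02 and -0.05). HOXA2 was 6.02 CPM in members of the WT-labelled library and 0.425 CPM in members of the FKO-labelled library, and 5.13 and 0.205 CPM in other FEV cells, so its difference was between the libraries, at levels under 20 CPM.

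Mature neuronal markers and stress genes were compared in the same way. Of 8 mature neuronal markers 8 were measured and 7 had a ratio above 0 in each library, with medians of 0.10 and 0.09. With the rule applied at 2000 UMIs, 5 of them (GAP43, NEFM, NEFL, MAPT and CHGB) had ratios below 0 in the FKO-labelled library, and against other FEV cells within the exclusion limits CHGB was -0.11 and NEFM -0.03 there. MAPT, which encodes tau, was 390.3 against 321 CPM in the WT-labelled library and 847 against 774 CPM in the FKO-labelled library. Of 14 immediate early and stress genes 5 were measured and 0 had a ratio above 0 in either library, with medians of -0.47 and -0.37. Genes short of the level went both ways: HSPA1A had ratios of 0.16 and 0.20, and ATF3 of -1.45 and -0.64. DDIT3, a transcription factor of the stress response, was 27.1 against 41.4 CPM and 21.3 against 31.5 CPM, and JUN was 38.0 against 57.8 CPM and 57.0 against 73.9 CPM. FOS turned in the WT-labelled library to 0.16 against other FEV cells within the exclusion limits, 0.36 against cells with CALB1 alone and 0.08 at a mitochondrial limit of 20%, and in the FKO-labelled library to 0.02 at 5%. No measured gene of these lists passed 1.5-fold in both libraries.

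Over the analysis as reported and 11 alternatives, 1 of them chosen after the data had been seen, the number of measured genes above 0 in the WT-labelled and FKO-labelled libraries ran as follows. It was 4 to 8 and 6 to 8 of 8 for serotonin synthesis and handling, 2 to 5 and 2 to 4 of 6 for serotonergic transcription factors and 4 to 7 and 5 to 7 of 8 for markers of serotonergic neurons. For calcium-binding proteins it was 3 to 6 and 2 to 7 of 7, for the BMP and tolloid pathway 4 to 7 and 4 to 5 of 7, for KIT ligand and receptor tyrosine kinases 2 to 3 and 1 to 4 of 4, for the family of SIX3 with EYA and DACH 2 to 2 and 0 to 2 of 2 and for the SPOCK family 1 to 3 and 2 to 3 of 3. Mature neuronal markers gave 6 to 8 and 3 to 8 of 8 and stress genes 0 to 1 and 0 to 1 of 5. The counts of these lists thus varied over the alternatives, which changed the cells, the level or the centring. That of the family of SIX3 in the WT-labelled library did not vary.

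The mitochondrial and ribosomal shares and the marked doublets were compared between members and other FEV cells. The median mitochondrial share was 7.80% in members and 7.88% in other FEV cells of the WT-labelled library, and 5.17% and 5.28% in the FKO-labelled library. Ribosomal protein genes took 10.6% and 11.3% of UMIs in the WT-labelled library, and 6.63% and 6.95% in the FKO-labelled library. Marked doublets were 10.7% of members and 10.5% of other FEV cells in the WT-labelled library, and 9.96% and 8.01% in the FKO-labelled library. In other FEV cells within the exclusion limits they were 8.76% and 6.18%, so members held more of them than these cells in both libraries, and their part in the marker pairs was not tested. Without them 8 genes were higher in members, the 5 above among them.

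Markers of other cells were summed in members, and their part in the results was not tested. The 7 neural progenitor genes summed to 700.4 CPM in members and 904 CPM in other FEV cells of the WT-labelled library, and 851 and 998 CPM in the FKO-labelled library. Most of it was VIM, a filament gene that young neurons also express, and 3 were measured, of which SOX2 was above 0 and VIM and NES below 0 in both libraries (medians -0.39 and -0.18). The 7 floor plate genes, FOXA2 among them, summed to 21.4 and 53.0 CPM in the WT-labelled library and 51.2 and 68.7 CPM in the FKO-labelled library, with SPON1 the most abundant and the only one measured. Its log2 ratio was -1.32 in the WT-labelled library and -0.17 in the FKO-labelled library, and -2.35 in the WT-labelled library against other FEV cells within the exclusion limits. In the FKO-labelled library SPON1 turned to 0.15 with 3 markers required and to 0.23 against cells with CALB1 alone. In members SHH was 1.48 and 1.38 CPM and CORIN 1.15 and 0.903 CPM (against 3.44 and 0.523 CPM in other FEV cells), while FERD3L had 0 UMIs in the FKO-labelled library. The 6 cycling genes summed to 63.6 and 47.0 CPM in the WT-labelled library and 54.3 and 55.5 CPM in the FKO-labelled library, led by CENPF, the only one measured, with ratios of 0.51 and -0.01. Against other FEV cells within the exclusion limits CENPF had a ratio of -0.44 in the WT-labelled library, with the rule applied at 2000 UMIs -0.54 and -1.10, with 3 markers required -0.71 in the FKO-labelled library, and against cells with CALB1 alone 1.13 and 0.28, so its direction depended on the choice of cells. Floor plate and progenitor sums were lower in members in both libraries.

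Mesenchymal genes differed between the libraries more than between the cells. Their 6 genes summed to 13.3 CPM in members and 37.9 CPM in other FEV cells of the WT-labelled library, led by COL3A1, and to 122 and 164 CPM in the FKO-labelled library, led by COL1A2. PDGFRA was 0.0955 and 0.744 CPM in members and DCN 1.86 and 6.85 CPM. The 6 glial genes summed to 2.29 and 5.07 CPM in the WT-labelled library and 21.5 and 39.2 CPM in the FKO-labelled library, led by S100B. Of their defining markers SOX10 had 0 UMIs in members of the WT-labelled library and GFAP 0 in those of the FKO-labelled library. Both lists were lower in members than in other FEV cells, and higher in the FKO-labelled library.

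KIT is also a gene of mast cells and melanocytes, and SIX3 of the forebrain. The 4 mast cell genes TPSAB1, CPA3, HDC and MS4A2 had 0 UMIs in members of both libraries, and summed to 0.0461 and 0.182 CPM in other FEV cells. The 5 melanocyte genes summed to 0.334 and 0.478 CPM in members and 0.553 and 1.34 CPM in other FEV cells, led by PMEL, with TYR at 0 UMIs in both libraries. Of the 8 forebrain genes 7 had 0 UMIs in members of the WT-labelled library and 3 in those of the FKO-labelled library. Their sum was 2.10 and 5.90 CPM in members and 1.61 and 4.87 CPM in other FEV cells, led by LHX2, and RAX had 0 UMIs in both libraries. These sums were pooled over all members and not over the members with KIT or with SIX3, and the part of these types was not tested.

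Genes of other transmitters were summed in the same way. The 4 GABAergic genes summed to 7.79 and 25.2 CPM in members and 7.67 and 21.7 CPM in other FEV cells, with the vesicular transporter gene SLC32A1 at 0 and 0.106 CPM in members. The 2 glutamatergic genes summed to 0.669 and 6.32 CPM in members and 1.48 and 5.39 CPM in other FEV cells, led by SLC17A6. The 5 catecholamine genes summed to 20 and 6.21 CPM in members and 25 and 9.85 CPM in other FEV cells, led by TH, with SLC6A2 at 0 UMIs in both libraries. None of these sums singled out the members. The 6 cholinergic and motor genes summed to 4.30 and 3.13 CPM in members, with CHAT at 0 UMIs in both libraries and SLC5A7 and ISL1 the most abundant in the WT-labelled and FKO-labelled libraries. The 6 LIM-homeodomain interneuron genes summed to 4.11 and 17.4 CPM, led by LHX4 and LHX1, with LHX3 at 0 UMIs in both libraries. The 4 Purkinje cell genes, listed because Purkinje cells also hold calbindin, summed to 4.44 and 12.8 CPM, led by CA8 and PCP4, with PCP2 at 1 and 0 UMIs in members. In other FEV cells these 3 sums were 6.78 and 2.57, 5.21 and 17.7, and 6.39 and 11.2 CPM.

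Whether members resembled each other in genes the rule did not use was asked by the 30 nearest FEV cells of each cell, in 30 principal components of 2000 variable genes without the 11 rule genes. In the WT-labelled library, 40.1% of the nearest cells of a member were members, where members made up 24.2% of all FEV cells. Members of the FKO-labelled library had 45.2% where they made up 25.3%. All FEV cells include those left out for SLC17A8 and for the peptide and hormone genes, which cannot be members. Within the exclusion limits, members made up 40.0% of FEV cells in the WT-labelled library and 30.9% in the FKO-labelled library. The part of the exclusion in the excess over all FEV cells was not tested. Around other FEV cells within the exclusion limits, weighted to the depth of members, the share was 27.1% and 27.7%. The share of members was thus higher around members than around other FEV cells weighted to the same depth in both libraries, although most of the nearest cells of a member were not members. They did not form a separate group: 50% or more of the nearest cells were members for 34.3% of members (520 cells) in the WT-labelled library and 44.2% (777 cells) in the FKO-labelled library, and for 12.3% and 10.5% of other FEV cells within the limits.

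The share rose with the number of markers. In the WT-labelled library it was 20.7% around cells with 0 markers, 31.2% with 1, 37.3% with 2, 45% with 3 and 49.8% with 4 or 5. In the FKO-labelled library it was 19.8%, 28.6%, 42.8%, 50.4% and 53.6%. The cells with 1 marker stood between those with 0 and those with 2. When each cell was thinned to 2000 UMIs both for the rule and for the neighbours, the share around members was 8.6% in the WT-labelled library, where 5.41% of FEV cells were members, and 11% in the FKO-labelled library, where 6.53% were. Both shares of FEV cells leave out the member itself.

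**Figure D4:**
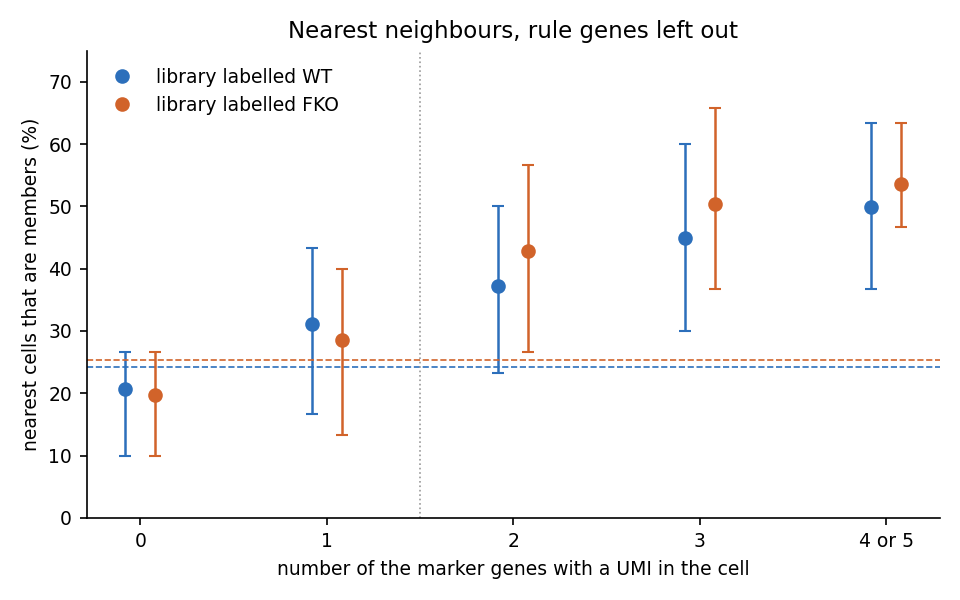
Share of members (%) among the 30 nearest FEV cells, with the rule genes left out, by the number of marker genes in the cell, for the WT-labelled library (blue) and FKO (orange). Points are means, bars run from the lower to the upper quartile of cells, dashed lines are the share over all FEV cells, and the dotted line is the threshold of the rule; the means rise from 20.7% and 19.8% with 0 markers to 49.8% and 53.6% with 4 or 5.

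The libraries differed more from each other than members did from other FEV cells. Of 7179 genes with at least 20 CPM in members of 1 or both libraries, the log2 ratio of FKO over WT had a median of 0.42 in members, and 90% of genes lay between -0.77 and 1.42. Relative to that median, 1280 genes (17.8%) were at least 1.5-fold higher in the FKO-labelled library and 1723 (24%) at least 1.5-fold lower. A gene could reach the level in the library where it was high alone, and of the 5569 genes that reached it in both, 596 (10.7%) were higher and 1538 (27.6%) lower. Nearly the same held in other FEV cells, where the median was 0.44: the ratio differed by at least 1.5-fold between members and other FEV cells for 23 of 7179 genes (0.320%), with a median absolute difference of 0.07. What separated the libraries in members was therefore shared by the other FEV cells for most genes. Ribosomal protein genes took 10.6% of the UMIs of members in the WT-labelled library and 6.63% in the FKO-labelled library, and the 50 most abundant genes took 26.4% and 21.6%, and the part of these shares in the shift of the median was not tested.

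Of the markers, measured over all FEV cells so that the rule did not choose the cells by them, SIX3 fell furthest and KIT rose most. SIX3 went from 23.0 CPM in the WT-labelled library to 7.15 CPM in the FKO-labelled library, a log2 ratio of -1.68 (-1.83 to -1.53), where the median gene was at 0.44. KIT went from 13.7 to 44.3 CPM, a log2 ratio of 1.69 (1.59 to 1.79). CALB1 had a ratio of -0.16 (-0.19 to -0.13), CHODL of -0.04 (-0.14 to 0.07) and TLL1 of 0.25 (0.14 to 0.36), so these 3 lay below the median gene. TAFA2 was above it, at 1.18 (1.09 to 1.27), and SPOCK3 below it, at 0.08 (0.05 to 0.12). FOXA2 had a ratio of 2.11 (1.94 to 2.29) over FEV cells and 2.33 (1.90 to 2.77) in members, or 1.91 relative to the median.

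The largest ratios of FKO over WT in members, among genes with at least 50 CPM in either library, were those of CA10, KCTD16, NEAT1, ENSG00000230606, TENM1, EBF1, XKR4 and OPCML. CA10, a carbonic anhydrase-related protein of the synapse, went from 3.63 CPM in the WT-labelled library to 61.9 CPM in the FKO-labelled library, a log2 ratio of 4.09 (3.76 to 4.45). CA10 was also higher in members than in other FEV cells, where it was 2.01 and 38.0 CPM. The other 7 had ratios of 2.39 to 2.76. KCTD16, an auxiliary subunit of GABA-B receptors, went from 11.9 to 80.7 CPM, and EBF1, a transcription factor of early neuronal differentiation, from 10.6 to 57.4 CPM. NEAT1, a nuclear long noncoding RNA, went from 24.4 to 136 CPM. In other FEV cells these genes had ratios, before the median was taken off, of 4.24 for CA10, 3.06 for KCTD16, 2.67 for EBF1 and 2.46 for NEAT1, close to those in members.

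The lowest ratios were those of CLIC1, CRABP2, METRN, TIMP1, HLA-C, DIRAS3, MIF and ANXA2. CLIC1, a chloride intracellular channel protein, went from 136 CPM in the WT-labelled library to 18.9 CPM in the FKO-labelled library, a log2 ratio of -2.85 (-3.02 to -2.69). CRABP2, which carries retinoic acid to the nucleus, went from 182 to 46.9 CPM (-1.96, -2.07 to -1.85), and MIF, a cytokine, from 543 to 169.6 CPM (-1.68, -1.74 to -1.62). The other 5 had ratios of -1.92 to -1.62. CLIC1, TIMP1, DIRAS3 and ANXA2 were also among the 14 genes that were lower in members than in other FEV cells within each library.

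**Figure D5:**
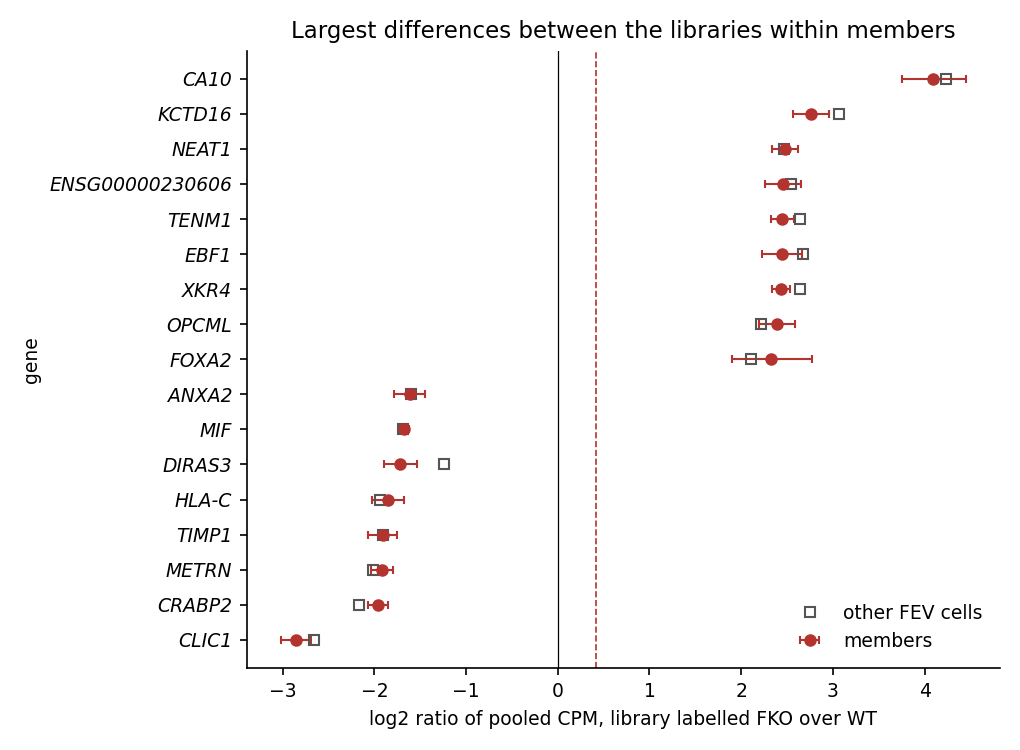
Log2 ratio of pooled CPM of FKO over WT in members (filled, with exact 95% intervals) and in other FEV cells (open squares) for the 8 highest and 8 lowest genes and FOXA2. The dashed line is the median gene in members (0.42), and the open squares lie near the filled points.

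Lists of genes were read for FKO over WT in members relative to the median, with only genes counted that reached 20 CPM in members of both libraries. Of 27 genes for KIT ligand and receptor tyrosine kinases 4 were counted, and 3 were at least 1.5-fold above the median and 0 below, beside 10.7% and 27.6% of all genes. NTRK3 went from 39.2 to 137 CPM and the ephrin receptor EPHA5, not counted, from 15.9 to 71.6 CPM. Of 11 serotonergic transcription factors 5 were counted, 3 of them above and 0 below, and SOX11 went from 438 to 1229.5 CPM and LMX1B from 33.8 to 77.9 CPM. Of 11 genes of serotonin synthesis and handling 8 were counted, 2 above and 3 below, so this list had no shared direction. MAOA, which breaks serotonin down and was not counted, went from 10.7 to 43.8 CPM and the vesicular transporter SLC18A2 from 21.6 to 58.0 CPM, while QDPR and PTS, of the cofactor pathway, had ratios of -0.67 and -0.49 (-1.09 and -0.91 relative to the median). TPH2 was 154 and 150.5 CPM in members, a ratio of -0.03 (-0.10 to 0.04).

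Of 24 genes of the BMP and tolloid pathway 7 were counted, 2 above and 0 below, and the receptor BMPR2 went from 52.9 to 154 CPM. Of 8 mature neuronal markers 8 were counted, 3 above and 0 below, and CHGB went from 1142 to 2425 CPM. Of 14 neuronal calcium-binding proteins 7 were counted, 0 above and 2 below, CALM2 (from 2175 to 1344 CPM) and NECAB2 (from 159.6 to 116 CPM). CALB1, a rule gene on which members were selected, had a ratio of -0.14 in members, or -0.56 relative to the median, short of 1.5-fold. Over all FEV cells, which were not chosen by it, CALB1 was -0.59 relative to the median gene. Of the 6 mesenchymal genes 0 reached the level in both libraries. COL1A1 went from 0.143 to 39.6 CPM in members and from 2.23 to 55.0 CPM in other FEV cells. TAC1 was 404 CPM in members of the WT-labelled library and 1589 CPM in those of the FKO-labelled library, the largest absolute level of the neuropeptide list.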

How the data were processed

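The deposited values are counts of UMIs per gene and barcode, which the authors made with Cell Ranger (7.0 in the submitters' notes, 7.1.0 in the file headers) on GRCh38, with the annotation release not stated. Both libraries had 61487 features, all of gene expression. Cells were filtered on UMIs, genes and mitochondrial share, and members were taken by the rule given in the report. Members and lists were chosen with earlier results of these data known.

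Counts were pooled over the cells of a class within a library, turned into CPM and compared as log2 ratios, with exact Poisson, binomial or conditional intervals. A gene was called at 1.5-fold in both libraries, with 20 CPM on either side in each. Genes of the rule and mitochondrial genes were left out of calls and of the neighbour search. Named are 13 of the 15 highest and the 10 lowest genes in members over other FEV cells, the 8 highest and 8 lowest in FKO over WT with 50 CPM, genes of 29 lists, and the 14 lower genes in full. Single genes of the lists were picked for the text after their values had been seen. Doublets were marked with Scrublet in scanpy 1.11.5 at 0.8% per 1000 barcodes. Software was Python 3.11.15, numpy 2.4.6, scipy 1.17.1, pandas 2.3.3 and scikit-learn 1.9.0.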

Additional observations from a re-analysis of the deposited data

Results flagged for a closer look

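Among 88 genes looked at (the named genes outside the rule that reached 20 CPM in each library), 4 had log2 ratios of members over other FEV cells that took opposite directions in the 2 libraries with intervals on either side of 0. The differences between the libraries were not tested, and each library is 1 sample. CRABP2 was -0.0646 in the WT-labelled library and 0.15 in the FKO-labelled library. ID4 was 0.13 in the WT-labelled library and -0.27 in the FKO-labelled library. SOX11 was 0.0799 in the WT-labelled library and -0.13 in the FKO-labelled library. TAFA2, a listed marker of these cells, was 0.46 in the WT-labelled library and -0.29 in the FKO-labelled library. Under that level 4 more genes took opposite directions in the same sense and were not counted: SST was -2.20 in the WT-labelled library and 3.85 in the FKO-labelled library, PCP4 -1.46 and 0.56, ISL1 -0.91 and 0.75, and TOP2A 0.39 and -0.28. Among the 4 counted genes the first 3 ratios lie within 1.5-fold of 0 in both libraries, as does TAFA2 against all other FEV cells. Against other FEV cells within the exclusion limits TAFA2 lay further below in the FKO-labelled library. It was 36.1 CPM in members there, against 60.2 CPM in such cells with 0 markers and 50.5 CPM with 1.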

How the results depend on the processing

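The share of FEV cells that were members, 24.2% in the WT-labelled library and 25.3% in the FKO-labelled library, depended on depth and on the number of markers. With every cell thinned to 2000 UMIs it was 5.42% and 6.55%, since fewer UMIs leave fewer markers to find, and with 3 markers required it was 7.82% and 7.33%, since the rule is stricter. A mitochondrial limit of 5% gave 18.7% in the WT-labelled library and 26.5% in the FKO-labelled library, a limit of 20% gave 21.9% in the WT-labelled library, and a minimum of 2 FEV UMIs gave 26.6% in the FKO-labelled library. For these last 4 values the cause was not tested.

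The 5 higher genes became 8 without doublets and 11 with the rule applied at 2000 UMIs, and the cause was not tested. They became 1 at a level of 50 CPM and 278 with no level beyond 3 UMIs, and the 14 lower genes became 3 and 356, since the level sets which genes are compared. With 3 markers required there were 9 lower genes, and the cause was not tested. Against FEV cells with CALB1 as their only marker, a comparison chosen after the data had been seen, there were 1 higher and 2 lower genes, and the cause was not tested.

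A ratio counts as reversed here when it was at least 1.5-fold in the analysis as reported and changed sign, and a smaller ratio that changed sign counts as the same or as moved. Of 1804 log2 ratios of single genes, members over other FEV cells, 1273 stayed the same, 526 moved and 5 reversed, and 131 changed sign, most of them under 1.5-fold. With at most 5% mitochondrial UMIs, which left 61 members in the WT-labelled library, FGF9 went to -0.26, CDH18 to -0.12 and IFITM3 to 0.31 there. With 3 markers required IGFBP5 went to 0.0647 in the WT-labelled library, and against cells with CALB1 alone COL5A2 went to 0.21. Of 546 ratios of FKO over WT in members 389 stayed the same, 156 moved, 16 changed sign and 1 reversed, that of SPON1, which went from 0.92 to -0.85 with at most 5% mitochondrial UMIs. For these 6 the cause was not tested. The median of FKO over WT was 0.31 in place of 0.42 at a level of 50 CPM, which changes the genes compared.

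The share of members among nearest cells was 8.6% and 11% with thinned cells and 21.9% and 20.6% with 3 markers required, where fewer FEV cells were members. It was 42.4% in the FKO-labelled library with 10 components, and the cause was not tested. Over the alternatives it was 1.59 to 2.80 times the share of members among FEV cells in the WT-labelled library and 1.68 to 2.82 times in the FKO-labelled library. The FEV cells of these ratios include those that the rule left out, and the part of the exclusion was not tested.

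No paired analysis was possible because nothing in the labels joins cells of 1 library to cells of the other.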

Other observations

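COL5A2, the lowest gene in members over other FEV cells, was 168 and 239 CPM in FEV cells with SLC17A8 of the WT-labelled and FKO-labelled libraries and 31.8 and 37.1 CPM in other FEV cells within the exclusion limits. It was chosen for this remark after its values had been seen.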
